A study of Mus musculus with 14 samples.

Results

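Macrophages sorted from the injured mouse brain were compared by whether they expressed arginase-1, in 4 arrays of Arg1+ cells against 4 arrays of Arg1- cells. These 8 arrays were chosen by their labels alone, out of 14 in the series. All cells came from male mice of the strain YARG, 12 to 16 weeks old, which carry a fluorescent reporter at the Arg1 locus, so both groups bear the same reporter allele. Both groups were taken 1 day after traumatic brain injury (TBI), made by controlled cortical impact, in which a piston hits the exposed brain. After perfusion, brain leukocytes were freed with enzymes, purified on Percoll and sorted alive, with antibodies to CD45, CD11b, Ly6G and F4/80. The other 6 arrays hold blood monocytes of the same strain, 3 after TBI and 3 from normal mice. They entered the fit for its estimate of the spread, and the post-TBI monocytes served as a point of reference. No array of brain macrophages from sham-operated or uninjured mice was used here. The labels number the replicates but do not say whether each came from a separate mouse or a pool, so p-values measure the spread between these samples, which may be in part technical.

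Arginase-1 splits arginine into ornithine and urea, and so competes with nitric oxide synthases for the same substrate. Macrophages raise it in response to IL-4 and IL-13, but also on hypoxia, lactate and uptake of dying cells, and it is widely used as a marker of wound-repair macrophages. After an injury of the cortex, monocytes enter from blood within the first day and mature into macrophages beside the resident microglia. Class II molecules, which present antigen to helper T cells, and the homing receptor CCR7 mark the contrasting, antigen-presenting side of the myeloid lineage.

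RNA was amplified and hybridised in 1 colour to Agilent arrays. The level of a gene is given as log2 of its processed signal over the array's own 75th percentile, with a floor at -4.3, and a difference is Arg1+ minus Arg1- on that scale, with the standard error of the fit after ±. On the brain arrays the 75th percentile lay between 119.4 and 418.5 intensity units, and the share of probes well above background lay between 50.4% and 68.69%. Across genes, arrays of the same group correlated at Pearson r 0.965 to 0.980 in Arg1+ cells and 0.955 to 0.984 in Arg1- cells, and arrays of opposite groups on 1 slide at 0.961 to 0.972. Each of 4 slides carried 1 array of each group. Within slides the 75th percentile of the Arg1+ array was 0.506, 0.625, 1.80 and 0.517 times that of the Arg1- array, so on slide 3 the Arg1+ array was the brighter one and on the others the dimmer.

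The comparison called 470 features higher in Arg1+ cells, 2.14% of the 21967 tested, and 638 lower, 2.90%. Called means a Benjamini-Hochberg adjusted p under 0.05 in limma. Among the 12963 features with a gene symbol 398 were higher, 3.07%, and 362 lower, 2.79%, with a median difference of 0.07. In either direction 5.86% were called, the share against which the counts of the gene lists below are to be read. The lower genes moved further on this scale. They were also dimmer, with a median level over both groups of -0.95 against 1.25 for the higher genes, both with a symbol. The part of level in the size of the differences was not tested. Of the genes with a symbol 145 were over 2-fold higher and 269 over 2-fold lower, and 13 against 71 passed 4-fold. Arg1 was the only one over 8-fold higher, whereas 26 were over 8-fold lower. Among the 760 called genes with a symbol 730 had arrays that stood wholly apart, where 16.4% of all such genes tested did. The calls were made on the same arrays and favour such separation, so it is no support for them. These counts depended on single arrays: 235 features were higher and 367 lower without Arg1- replicate 3, and 312 were higher without Arg1- replicate 1, 306 without Arg1+ replicate 2 and 251 without Arg1+ replicate 3. With slide fitted as a block 627 were higher and 875 lower, and none of the 111 called genes that the naming rule gives lost its call in limma. With slide as a block on the 8 brain arrays alone 33 of those 111 lost it, and the adjusted p of that fit is called blocked where it is given. Without a block the fit of those 8 arrays lost 11 of the 111 calls, and its adjusted p is called brain-only. Blood arrays share the spread of the main fit. Arrays at the floor have no spread, which makes the ± and the p-value smaller, and widely scattered blood arrays make them larger.

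**Figure D1:**
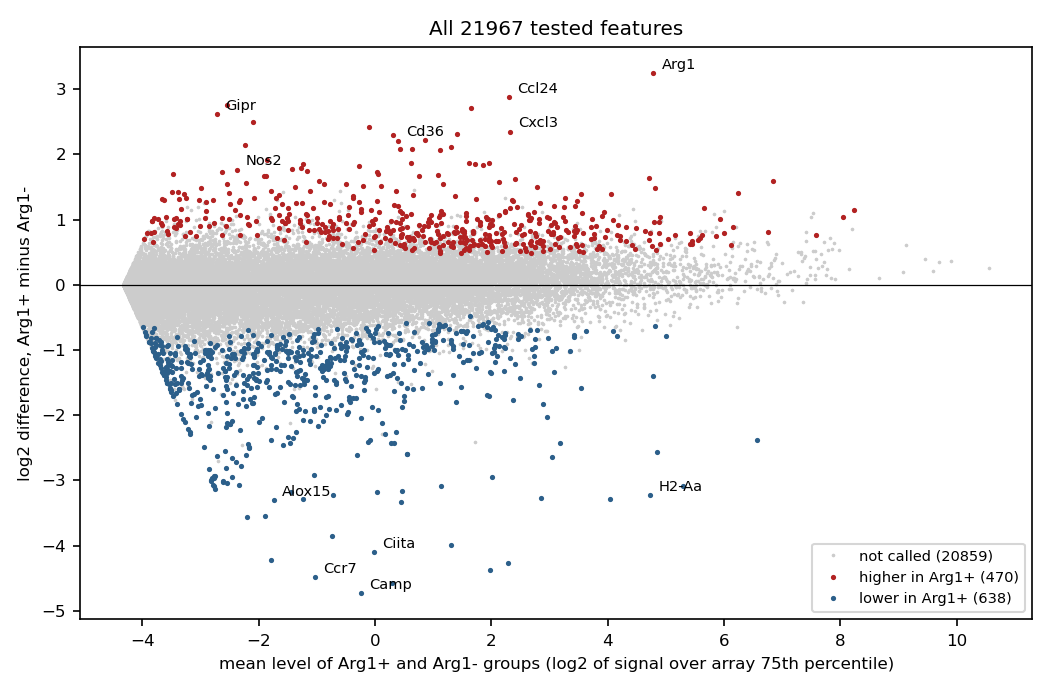
Difference between groups (vertical axis, log2, Arg1+ minus Arg1-) against the mean level of both groups (horizontal axis, log2 of signal over the array's 75th percentile) for each of the 21967 tested features. Red points are the 470 called higher, blue points the 638 called lower and grey points those not called. The blue points reach below -4, while Arg1 at 3.25 is the uppermost red point.

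The sort itself was checked first. Arg1, which encodes the enzyme whose reporter set the gate, read 6.82, 6.2 and 6.21 on Arg1+ replicates 1, 3 and 4, and the spot of replicate 2 was set aside as non-uniform. On the Arg1- arrays it read 4.20, 3.94, 2.40 and 2.12. The groups did not overlap, with a difference of 3.25 ± 0.43 (adjusted p = 0.000526), which is 9.51-fold. Arg1- replicates 1 and 2 stood well above replicates 3 and 4, and all 4 stood far above the post-TBI monocytes, whose mean was -3.48. The gene is the criterion of the sort, so this value describes the gate and is no result about it.

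The antigens used in the gate differed less. CD11b, encoded by the integrin gene Itgam, ran from 4.19 to 4.77 in Arg1+ and from 4.14 to 4.62 in Arg1- cells, with a difference of 0.15 ± 0.18 (adjusted p = 0.79), or -0.08 with quantile normalization. The F4/80 gene Adgre1 was 3.47, 4.09, 4.17 and 3.69 in Arg1+ cells against 3.16 to 3.25 in Arg1- cells. Those arrays did not overlap, but the difference of 0.62 ± 0.18 did not pass (adjusted p = 0.0608). It passed with slide as a block and without Arg1+ replicate 1 (adjusted p = 0.0307). The CD45 gene Ptprc was lower in Arg1+ cells by 0.71 on the log2 scale (adjusted p = 0.0192), a call lost on leaving out any of Arg1- replicates 1 and 3 and Arg1+ replicates 1 and 4 (adjusted p = 0.0578 to 0.0707). Ly6g, the antigen by which neutrophils are usually gated out, had no named probe here. Of 5 macrophage markers tested, among them Csf1r (0.13), Cd14 (0.43) and Fcgr1 (0.43), only Mertk passed, at 0.68. Their summed level was 126 to 157 in Arg1+ and 110 to 143 in Arg1- cells, in multiples of an array's 75th percentile.

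Beside Arg1, the 14 genes with the largest excess in Arg1+ cells included the chemokine Ccl24 and the scavenger receptor Cd36. Ccl24, the chemokine eotaxin-2, which attracts eosinophils through CCR3, read 4.17, 4.06, 3.33 and 3.42 in Arg1+ replicates 1 to 4 and 1.34, 1.26, 0.10 and 0.73 in Arg1- replicates 1 to 4. The difference was 2.88 ± 0.33 (adjusted p = 0.000126), or 7.38-fold. Every Arg1+ array stood above every Arg1- array by a wide margin, and the post-TBI monocytes lay lower still, at a mean of -2.08. Cd36, a scavenger receptor for oxidised lipid and dying cells, read 1.69, 1.65, 1.48 and 1.18 against -0.52, -0.40, -1.02 and -0.91, a difference of 2.21 ± 0.24 (adjusted p = 8.28e-05). Here the monocyte mean, 0.72, fell between the groups. Npy, the gene of neuropeptide Y, was 1.80, 2.15, 2.54 and 2.15 against -0.01, 0.19, -0.06 and 0.23 (difference 2.07 ± 0.18, adjusted p = 2.01e-05, brain-only 0.00212). Npy was at the floor on every blood array.

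Gipr, the receptor of the gut hormone GIP, reached -0.31, -0.88, -2.43 and -2.03 in Arg1+ cells. In Arg1- cells it was -3.19 on replicate 1, the only one well above background on the probe used, and -4.27, -4.3 and -4.3 on the rest (difference 2.61 ± 0.39, adjusted p = 0.00102, brain-only 0.0246). Counting any probe of the gene, 2 Arg1- arrays were well above background. The Arg1+ arrays spread over more than 2 log2 units without touching the Arg1- range. Plpp3, which dephosphorylates bioactive lipids such as lysophosphatidic acid, was 0.94 to 1.37 in Arg1+ and -1.88 to -0.64 in Arg1- cells (2.43 ± 0.24, adjusted p = 3.73e-05, brain-only 0.00419). Ptgr1, a reductase that inactivates leukotriene B4 and prostaglandins, was 1.71 to 2.36 against -0.41 to 0.00 (2.23 ± 0.26, adjusted p = 0.000139). Nrg4, an EGF-family ligand of ErbB4, differed by 2.30 ± 0.28, and Cav1, the scaffold of caveolae, by 1.87 ± 0.22. Hyal1, a lysosomal hyaluronidase, was 2.67 to 3.13 against 0.58 to 1.79 (1.86 ± 0.24, adjusted p = 0.000341). That the arrays of the groups were apart was a condition for choosing these genes. With slide as a block on the 8 brain arrays alone the calls of Arg1, Gipr and Cxcl3 were lost (adjusted p = 0.0839, 0.0844 and 0.0837). Plpp3 and Hyal1 were at the floor in post-TBI monocytes and Cav1 averaged -4.20 there, below both brain groups.

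**Figure D2:**
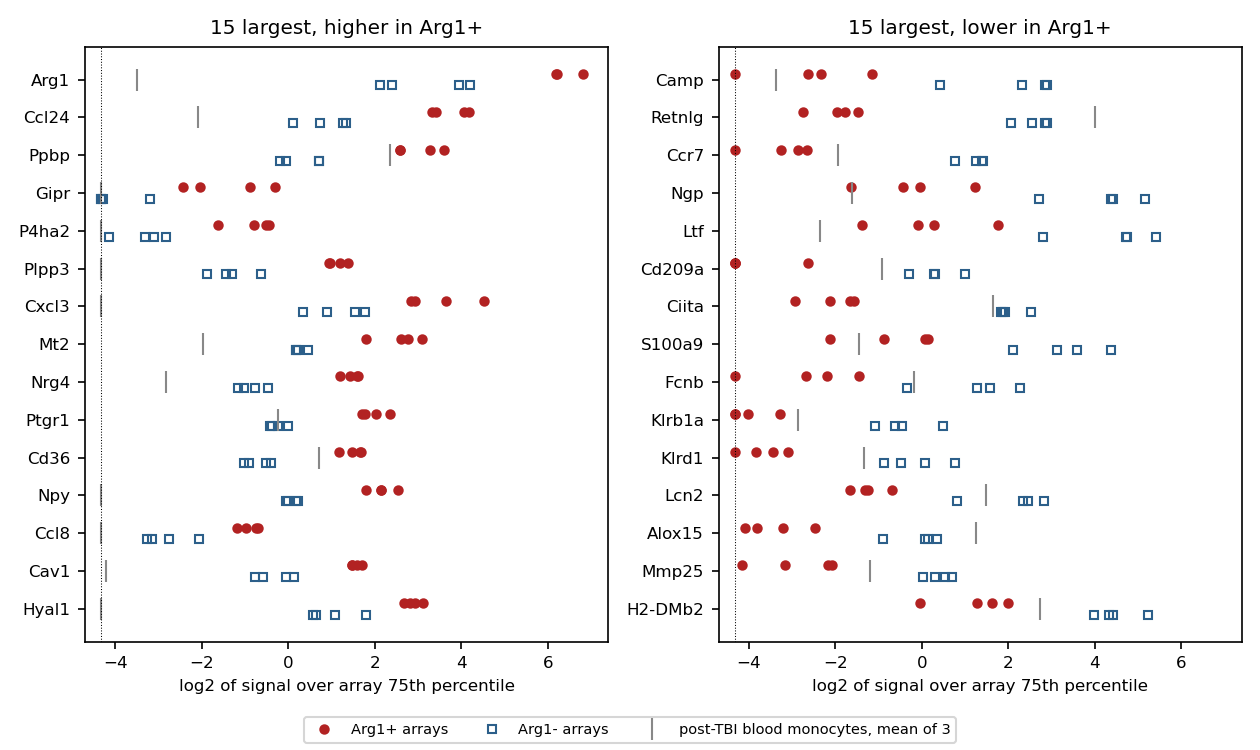
Level (horizontal axis, log2 of signal over the array's 75th percentile) of the 15 genes with the largest differences in each direction and no overlap. Filled red circles are single Arg1+ arrays, open blue squares single Arg1- arrays, grey bars the mean of 3 post-TBI monocyte arrays, and the dotted line the floor at -4.3. Arg1 has 3 red circles because 1 spot was set aside, and the circles and squares of each row are apart because the genes were chosen so.

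Among the 15 genes with the largest deficit in Arg1+ cells were Camp, Ngp, Ltf, S100a9, Lcn2 and Retnlg of the neutrophil list, Ciita and H2-DMb2 of the class II list, and Ccr7 and Cd209a of the dendritic cell list. Camp, the antimicrobial peptide cathelicidin, read -2.33, -1.15, -2.63 and -4.3 in Arg1+ cells and 2.31, 2.90, 2.84 and 0.43 in Arg1- cells, a difference of -4.73 ± 0.68 (adjusted p = 0.000753). Arg1- replicate 4 was the lowest of its group and Arg1+ replicate 4 was at the floor. Ccr7 read -4.3, -2.86, -2.65 and -3.27 against 1.39, 0.76, 1.26 and 1.41 (-4.48 ± 0.42, adjusted p = 3.02e-05). The Arg1- arrays were close together and far above the other group. Klrb1a and Klrd1, lectin receptors of natural killer cells, each exceeded background on a single Arg1+ array but on every Arg1- array, and differed by -3.56 ± 0.45 and -3.55 ± 0.44. Mmp25, a membrane-anchored protease best known from neutrophils, was -4.16, -2.16, -3.17 and -2.08 against 0.31, 0.70, 0.53 and 0.03 (-3.29 ± 0.71, adjusted p = 0.013).

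Most genes of the class II pathway were lower in Arg1+ cells. Of 14 tested genes 10 were lower, 1 was higher and 3 were not called, with a median difference of -2.40 against 0.07 over all genes with a symbol. Within slides 1 to 4 the median of the list was -2.63, -1.86, -2.33 and -2.58. Ciita, the coactivator on which transcription of the pathway depends, read -2.92, -1.57, -1.66 and -2.13 in Arg1+ cells and 1.82, 1.92, 2.52 and 1.88 in Arg1- cells. Its difference was -4.10 ± 0.30 (adjusted p = 6.03e-06), 17.2-fold lower, and the 4 Arg1- arrays lay near the post-TBI monocytes, whose mean was 1.64. H2-Aa, the alpha chain of the class II molecule I-A, read 1.95, 3.93, 3.59 and 3.02 against 5.82, 6.56, 6.43 and 6.57 (-3.22 ± 0.36, adjusted p = 0.000109). Arg1+ replicate 1 was the lowest for both genes. The chaperone that loads peptides was lower through H2-DMb2 (-3.27 ± 0.35), and its inhibitor through H2-Ob (-3.22 ± 0.46).

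The remaining called members were chosen for naming after their values were seen. They were H2-Eb2 at -2.81, the invariant chain Cd74 at -2.57, H2-DMb1 at -2.42, H2-Ab1 at -2.37, H2-Oa at -1.72 and H2-DMa at -1.40. Proteases and reductases that prepare peptides in the same vesicles did not share the deficit. Legumain, Lgmn, was higher by 1.06 ± 0.18, while Ctss (0.48) and Ifi30 (-0.26) did not pass. Probes of close H2 paralogs can take up each other's RNA.

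The promoters of class II genes carry letters by which the pathway is known, and they are shown because these genes had lower levels together. CIITA does not bind DNA but is recruited by factors on an X box and, downstream of it, a Y box, the reversed CCAAT motif of NF-Y. RefSeq promoters on GRCm38.p6 were searched for the X-type letters AG, AC and ATG, each parted from the next by a pair of free bases, and the Y-type letters ATTGG, over 250 bases before and 50 after each start. Of the 15 listed genes 11 had an entry. Among 9 starts of 8 H2 genes, 8 held the Y-type letters and 5 the X-type letters on either strand, where 37.4% and 3.09% of all 32851 promoters of that length did. The order X then Y within 40 bases on the gene's strand occurred in 4 of those 9 starts and in 18 of all promoters, 0.0548%. These counts include H2-Eb1, which has that order but whose level was not tested here, so it is not printed. The windows run from 150 to 21 bases before the start, in the gene's direction. Capitals mark the Y-type letters, and the X-type letters where they start within 40 bases before them. The first group holds both motifs, which start 31 to 34 bases apart and do not overlap.
H2-Eb2: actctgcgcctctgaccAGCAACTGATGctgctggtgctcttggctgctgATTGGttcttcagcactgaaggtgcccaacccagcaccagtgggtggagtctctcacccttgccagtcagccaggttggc
H2-DMb1: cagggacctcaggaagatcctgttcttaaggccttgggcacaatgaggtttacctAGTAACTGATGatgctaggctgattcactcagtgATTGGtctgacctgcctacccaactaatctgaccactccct
H2-Ob: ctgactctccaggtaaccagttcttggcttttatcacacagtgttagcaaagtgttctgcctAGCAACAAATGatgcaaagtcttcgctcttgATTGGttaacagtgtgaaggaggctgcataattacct
These lie at chr17:34325525-34325654, chr17:34153041-34153170 and chr17:34238755-34238884, all on the plus strand. In the second group only the Y-type letters are marked. The search took a strict form of the X-type letters, so an unmarked window may hold a variant. That of H2-DMb2 holds attaaccgatg, which departs from them at a single base. H2-DMa is not printed because it had no Y-type letters on the gene's strand within the window. The window of H2-Oa holds the X-type letters too (agtgacagatg), unmarked because they start more than 40 bases before the Y-type letters.
H2-Aa: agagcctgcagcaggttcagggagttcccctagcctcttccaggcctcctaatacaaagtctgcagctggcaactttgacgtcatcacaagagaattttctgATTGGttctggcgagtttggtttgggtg
H2-DMb2: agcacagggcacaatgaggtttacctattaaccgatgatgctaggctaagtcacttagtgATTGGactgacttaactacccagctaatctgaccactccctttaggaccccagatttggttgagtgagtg
H2-Oa: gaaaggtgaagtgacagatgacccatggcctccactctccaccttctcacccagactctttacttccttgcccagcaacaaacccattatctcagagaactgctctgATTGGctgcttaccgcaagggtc
H2-Aa lies on the minus strand at chr17:34287844-34287973, and H2-DMb2 and H2-Oa on the plus strand at chr17:34145099-34145228 and chr17:34092229-34092358. A match is a description of letters and no measure of binding.

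Genes of dendritic cells differed in the same direction as class II. Of 9 tested markers, Ccr7 and Ccl22 among them, 8 were lower in Arg1+ cells and none higher. Their summed level was 0.87 to 1.29 in Arg1+, 6.19 to 8.16 in Arg1- and 4.36 to 5.72 in post-TBI monocytes, so the ranges of the brain groups lay far apart. Flt3, the receptor of a growth factor of dendritic cells, was at the floor on 3 Arg1+ arrays and at -3.78 on replicate 4, against -2.07, -1.44, -1.11 and -2.15 (-2.50 ± 0.29, adjusted p = 0.000135). Cd209a, a lectin of the DC-SIGN family, was above background on 1 of 4 Arg1+ arrays and differed by -4.22 ± 0.49. Dpp4, a surface peptidase, differed by -2.97 ± 0.32. Irf4, a transcription factor of one branch of dendritic cells that is not on this list, was not well above background on any Arg1+ array and read -1.51, -1.56, -0.87 and -1.37 in Arg1- cells, at least 6.9-fold lower (adjusted p = 4.25e-06, brain-only 0.00153). Its Arg1+ arrays were all at the floor and add no spread, which makes these p-values smaller. In bulk samples fewer cells of a type and less RNA per cell cannot be told apart. The part of these markers in the class II result was not tested.

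**Figure D3:**
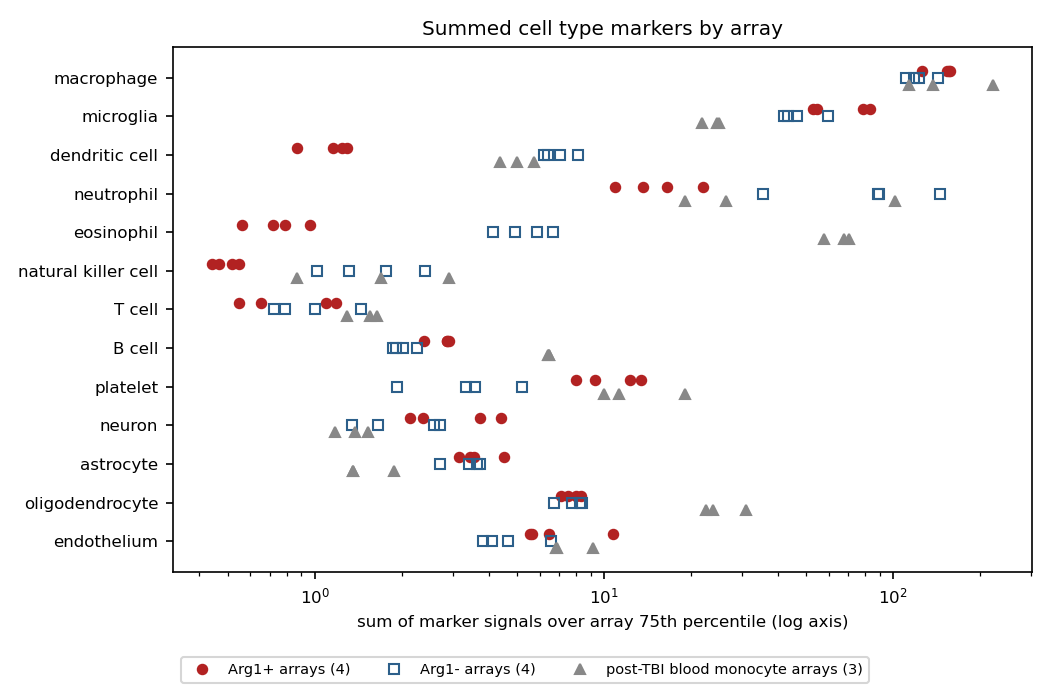
Summed signal of the tested markers of each cell type (horizontal log axis, multiples of the array's 75th percentile), with 1 point per array. Red circles are Arg1+, open blue squares Arg1- and grey triangles post-TBI monocyte arrays. Dendritic cell, neutrophil and eosinophil sums of Arg1+ arrays lie left of all Arg1- arrays, while those of T cells and oligodendrocytes overlap.

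Ligands and receptors of T cell contact were lower in part. Of 16 tested costimulation and checkpoint genes 3 were lower and none higher. Btla, an inhibitory receptor, was not well above background on any Arg1+ array and at least 7.02-fold lower. Cd83, a marker of mature antigen-presenting cells, was -0.47 to 0.16 against 1.22 to 1.67 (-1.60 ± 0.29), and Icosl, the ligand of ICOS, differed by -1.05 ± 0.18 with 1 Arg1- spot set aside. The classical ligands Cd80 (-0.93), Cd86 (-0.12) and Cd274 (0.32) did not pass.

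Neutrophil genes were among those that differed most, 8 of 13 tested being lower and 1 higher in Arg1+ cells. Retnlg, a resistin-like secreted protein, read -2.75, -1.47, -1.78 and -1.95 against 2.54, 2.84, 2.89 and 2.06 (-4.57 ± 0.58, adjusted p = 0.000374). Ngp and Ltf, proteins of the secondary granules, differed by -4.38 ± 0.59 and -4.27 ± 0.72, and S100a9, a calcium-binding alarmin, by -4.00 ± 0.74. Ltf shows how the arrays within a group differed, with 0.27, 1.75, -0.08 and -1.37 in Arg1+ cells and 4.71, 5.41, 4.75 and 2.80 in Arg1- cells. Replicate 4 was the lowest of both groups for Camp, Ngp, Ltf and S100a9. Slide 3, which pairs Arg1+ replicate 4 with Arg1- replicate 2, therefore gave the widest gap, -7.22 for Camp and -6.79 for Ngp. Lcn2, a siderophore-binding protein, was lower as well (-3.34 ± 0.67), and so was Fcnb, a ficolin of neutrophils that is not on the list (-3.86 ± 0.68). The 1 higher member was the collagenase Mmp8 (0.98), named after its value was seen. The call of Ltf and that of S100a9 were lost with slide as a block on the 8 brain arrays alone (adjusted p = 0.0573 and 0.0501). The summed level of the list was 10.9 to 22.0 in Arg1+, 35.4 to 145.7 in Arg1- and 19.0 to 101 in post-TBI monocytes.

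Eosinophil genes followed the same direction, with 4 of 7 lower and none higher. Ear1, an eosinophil-associated ribonuclease, read -2.32, -1.03, -1.51 and -1.36 against 1.24, 1.84, 1.65 and 1.80 (-3.18 ± 0.24, adjusted p = 6.03e-06). Both brain groups lay below the post-TBI monocytes, which averaged 5.76. Ear6 (-2.94 ± 0.24) was lower, and so was Prg2, the major basic protein (-3.07 ± 0.70), whose call was lost on leaving out any of Arg1- replicates 2 and 3 and Arg1+ replicates 3 and 4 (adjusted p = 0.0528 to 0.0702). The list summed to 0.56 to 0.96 in Arg1+, 4.14 to 6.69 in Arg1- and 57.9 to 70.5 in post-TBI monocytes. Ear1 and Ear6, at means of 5.76 and 2.90 in those sorted monocytes, are part of that sum, so it is no measure of eosinophils. The part of eosinophils in these values was not tested. Ear probes can take up each other's RNA. Alox15, a lipoxygenase of eosinophils and of some macrophages, was -3.20, -2.46, -3.81 and -4.10 against 0.07, 0.34, 0.14 and -0.91 (-3.30 ± 0.84, adjusted p = 0.0321), and 1.26 in post-TBI monocytes. Its groups were apart by the rule that chose it, yet the call was lost on leaving out any of Arg1- replicates 1 to 3 and Arg1+ replicates 1, 3 and 4 (adjusted p = 0.0634 to 0.0975). Its blood arrays scattered widely, at -0.35, 0.54 and 3.58 after TBI. The adjusted p of Alox15 was 0.00634 brain-only and 0.0361 blocked. With the authors' deposited log2 values and with normexp background correction its call was lost.

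Other cell types showed few called markers. Klrd1 was the only 1 of 8 natural killer cell markers to pass, and the list summed to 0.441 to 0.548 in Arg1+ and 1.02 to 2.40 in Arg1- cells. None of 10 microglia markers passed in limma (6 had an unadjusted p under 0.05), with 9 of 10 above 0, a median of 0.55 and within-slide medians of 0.57, 0.74, -0.34 and 0.81. None of 5 T cell, 5 oligodendrocyte, 6 endothelium, 4 red cell or 2 mast cell and basophil markers passed in limma, and 3, 1, 2, 0 and 0 of them had an unadjusted p under 0.05. Cd22 passed in the B cell list (0.97 ± 0.19), Ppbp in the platelet list and Nefl in the neuron list (1.02 ± 0.22, blocked adjusted p = 0.135). Nefl, a neurofilament chain, read -2.84, -2.54, -1.85 and -2.40 against -3.84, -3.43, -3.23 and -3.23, and the list median within slides ran from -0.08 to 1.95. Gja1, the gap junction protein connexin 43, was the only called astrocyte marker (1.17 ± 0.21, blocked adjusted p = 0.0585), and 1 of its 4 Arg1- spots exceeded background. The part of neural, microglial or other cells in the differences given here was not tested.

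**Figure D4:**
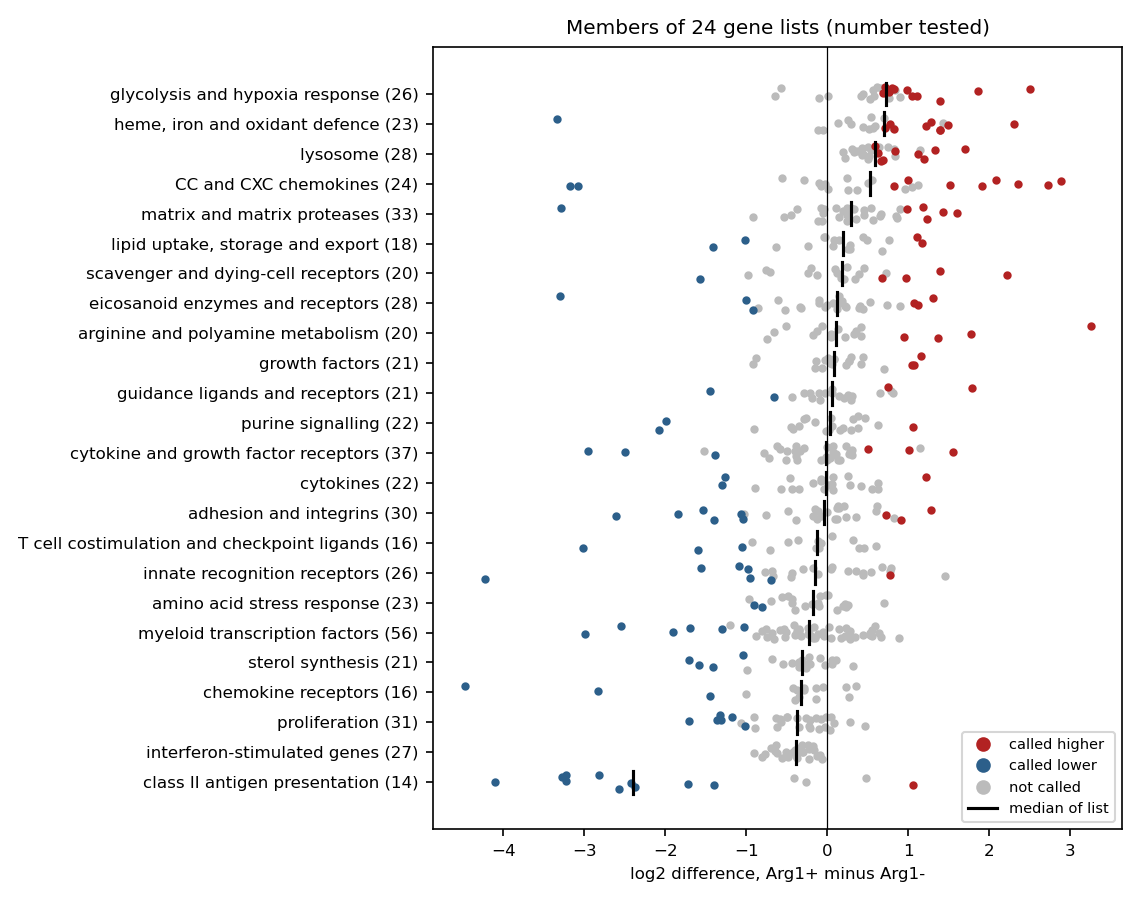
Difference of each tested member (points, horizontal axis, log2, Arg1+ minus Arg1-) in 24 gene lists, with the number tested after each name and the median as a black bar. Red points were called higher, blue points lower and grey points not called. The class II list stands at a median of -2.40, and glycolysis and hypoxia at 0.72.

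Chemokines divided by ligand. Of 24 tested 8 were higher in Arg1+ cells and 2 lower, with a median of 0.53. Cxcl3, a neutrophil attractant of the CXCR2 family, read 4.53, 3.65, 2.84 and 2.93 against 1.77, 1.54, 0.35 and 0.90 (2.35 ± 0.35, adjusted p = 0.000995, brain-only 0.0236). Every blood array of Cxcl3 was at the floor. Ppbp, whose processed products attract neutrophils too, was 3.27, 3.59, 2.59 and 2.60 against 0.71, 0.70, -0.19 and -0.05 (2.72 ± 0.43). Its monocyte mean was 2.36, close to the Arg1+ arrays. Ccl8, a monocyte attractant, differed by 1.91 ± 0.25. The lower pair, Ccl17 and Ccl22, are the ligands of CCR4, made by dendritic cells and IL-4-treated macrophages. Ccl17 read -1.87, -0.58, -0.77 and -1.28 against 1.51, 2.16, 2.35 and 2.16 (-3.17 ± 0.28, adjusted p = 1.67e-05). Ccl22 was not well above background on any Arg1+ array and at least 7.32-fold lower. For Cxcl3, Ppbp and Ccl8 the groups of arrays were apart by the rule that chose them. Those of Ccl17 and Ccl22 were apart too. Ccl22 was at the floor on every blood array and passed the filter through the Arg1- arrays, where it is high, so its separation is no support. Among platelet markers, which include Ppbp, 1 of 5 passed, and the median difference of the list was 0.14. The list summed to 8.04 to 13.4 in Arg1+ and 1.93 to 5.21 in Arg1- cells. Ppbp is itself a large part of that sum, so the sum is no separate evidence on platelets. The part of platelets in the Ppbp value was not tested.

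Of 16 chemokine receptors 3 were lower and none higher. Ccr7 led them, Ccr3 was at least 6.38-fold lower and Cxcr2 differed by -1.45 ± 0.33. Both of the latter calls were lost in part of the fits that left out 1 array. That of Ccr3 was lost on leaving out any of Arg1- replicates 1 to 3 and Arg1+ replicates 2 to 4 (adjusted p = 0.052 to 0.0635), and that of Cxcr2 without Arg1- replicate 2 or 3 or Arg1+ replicate 2 or 3 (adjusted p = 0.053 to 0.0658). The blood arrays of Ccr3 scattered widely, at -0.91, -0.41 and 2.22 after TBI. Its adjusted p was 0.00244 brain-only and 0.0282 blocked. With the authors' deposited log2 values and with normexp background correction the call of Ccr3 was lost. Ccr2, which draws monocytes out of marrow and into tissue, read 1.90, 2.51, 1.64 and 1.37 against 3.07, 2.48, 3.25 and 2.60. The groups overlapped at Arg1+ replicate 2, and the difference of -1.0 ± 0.29 did not pass (adjusted p = 0.0602).

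Of 22 secreted cytokines 1 was higher and 2 were lower, 13.6% called against 5.86% of all genes with a symbol, with a median of -0.02. Tnf, the central inflammatory cytokine, ran from 2.50 to 3.22 in Arg1+ and from 1.81 to 3.20 in Arg1- cells (0.27 ± 0.34, adjusted p = 0.799). Il1b was 2.01, 0.67, 0.90 and 0.81 against 2.75, 1.79, 2.35 and 2.56 (-1.27 ± 0.29, adjusted p = 0.0178), and Arg1+ replicate 1 lay inside the Arg1- range. That call was lost on leaving out any of Arg1- replicates 1, 3 and 4 and Arg1+ replicates 2, 3 and 4 (adjusted p = 0.0515 to 0.0639). Ltb, lymphotoxin beta, was lower (-1.31 ± 0.28, lost without Arg1- replicate 3, adjusted p = 0.0511). Tnfsf12, the TWEAK gene, was higher (1.21 ± 0.31), a call lost on leaving out any of Arg1- replicates 1 to 3 and Arg1+ replicates 1, 3 and 4 (adjusted p = 0.0705 to 0.118). Il6 and Il10 were not tested here.

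Growth factors had 3 of 21 higher and none lower, 14.3% called, with a median of 0.08. Grn, the lysosomal and secreted progranulin, was 8.35 to 8.98 in Arg1+ and 7.18 to 7.82 on the 3 usable Arg1- spots (1.04 ± 0.25, adjusted p = 0.0244). Gdf15, a stress-induced member of the TGF-beta family, differed by 1.16 ± 0.28, and Areg, an EGF-receptor ligand known from tissue repair, by 1.07 ± 0.28 with overlapping arrays. All these calls were lost when single arrays were left out. Grn lost it without Arg1- replicate 2 or 3 or Arg1+ replicate 3 (adjusted p = 0.0598 to 0.117), and Gdf15 without Arg1- replicate 1 or 3 or Arg1+ replicate 1, 3 or 4 (adjusted p = 0.0666 to 0.0922). For Areg it was lost on leaving out any of Arg1- replicates 2 to 4 and Arg1+ replicates 1, 2 and 4 (adjusted p = 0.0501 to 0.117). Vegfa, the vessel growth factor, was 5.16 to 5.39 in Arg1+ and 4.63 to 5.48 in Arg1- cells (0.29 ± 0.57), and Tgfb1 differed by 0.01 ± 0.26.

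Cytokine and growth factor receptors had 3 higher and 3 lower of 37. Il1r2, the decoy receptor that soaks up IL-1, read 0.97, 0.83, 0.53 and -0.21 in Arg1+ cells and 3.39, 2.96, 4.23 and 3.37 in Arg1- cells (-2.96 ± 0.40, adjusted p = 0.000507). Both ranges lay apart, and the monocyte mean of 0.26 lay with the Arg1+ arrays. Tnfrsf26, a decoy-type receptor of the TNF family, was higher, -0.01 to 0.76 against -1.56 to -0.82 (1.55 ± 0.33, adjusted p = 0.0137, blocked 0.0501). Il18rap, a chain of the IL-18 receptor, was lower (-1.38 ± 0.37), a call lost without any 1 array except Arg1+ replicate 2 (adjusted p = 0.0557 to 0.127).

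Both arginases and the inducible nitric oxide synthase were higher in Arg1+ cells. Arg2, the mitochondrial arginase, read 0.63, 0.12, 0.26 and 0.22 against -0.79, -1.01, -1.33 and -1.12 (1.37 ± 0.24, adjusted p = 0.00379). Nos2 read -0.92, -0.95, -2.26 and -1.81 against -2.41, -3.23, -3.81 and -3.55, above background on 2 of 4 Arg1- arrays (1.77 ± 0.32, adjusted p = 0.00484, brain-only 0.0449). The highest Arg1- array, replicate 1, came within 0.15 of its slide partner, Arg1+ replicate 3. Slc7a2, a carrier that brings arginine into the cell, was -0.65 to -0.28 against -1.86 to -1.16 (0.95 ± 0.20, adjusted p = 0.0104). With slide as a block on the 8 brain arrays alone the calls of Nos2 and Slc7a2 were lost (adjusted p = 0.132 and 0.0692). In all 4 of 20 tested genes of arginine and polyamine metabolism were higher, Arg1 included, and none lower. The polyamine enzymes Odc1 (0.07), Srm (0.35) and Sms (0.07) and the other arginine carrier Slc7a1 (-0.66) did not pass. Of further genes tied to IL-4, Retnla was at the floor on all Arg1+ arrays and at least 4.0-fold lower (adjusted p = 0.0174, 0.0544 without Arg1- replicate 4 and 0.0541 in the blocked fit). Chil3 (-0.69, adjusted p = 0.147) and Mrc1 (1.45, adjusted p = 0.0667) did not pass, although the arrays of both were free of overlap. They differed in stability. Chil3 passed in none of 21 alternative fits, whereas Mrc1 passed in 5, among them brain-only (adjusted p = 0.0139), slide as a block (0.0185) and blocked (0.0406).

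Lysosome genes were higher in Arg1+ cells or not called. Of 28 tested 9 were higher and none lower, all 28 fitted differences were above 0, and the median was 0.58, or 0.36 with quantile normalization. Atp6v0d2, a proton pump subunit of osteoclasts and some macrophages, read -2.56, -2.89, -2.33 and -2.71, while all 4 Arg1- arrays were at the floor, at least 3.1-fold higher (adjusted p = 2.78e-05, brain-only 0.00221). Every blood array was at the floor too, so the gene passed the filter through the Arg1+ arrays, where it is high. Its p-values rest on groups without spread and are no support for the difference. Ctsl, a cysteine protease, was 3.59 to 4.07 against 2.30 to 2.96 (1.19 ± 0.20), and Atp6v1a, another pump subunit, 4.37 to 4.62 against 3.13 to 3.67 (1.12 ± 0.18). Ctsk, the collagen-cleaving cathepsin K, differed by 1.33 ± 0.30, a call lost without Arg1- replicate 3 or 4 or Arg1+ replicate 2, 3 or 4 (adjusted p = 0.0535 to 0.0586).

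Receptors for lipoproteins and dying cells did not move as one, with 4 higher and 1 lower of 20. Besides Cd36, Cd163, which takes up haemoglobin bound to haptoglobin, read -2.44, -2.49, -2.47 and -3.0 against -3.36, -4.09, -4.16 and -4.3 (1.39 ± 0.22, adjusted p = 0.00148). Axl and Mertk, related receptor kinases that recognise dying cells through the same bridging ligands, differed in opposite directions. Axl was -2.75 to -2.40 in Arg1+ and -1.40 to -0.83 in Arg1- cells (-1.57 ± 0.23, adjusted p = 0.00106). Mertk was 2.03 to 2.66 against 1.50 to 2.10 (0.68 ± 0.18, adjusted p = 0.0466), with overlap at Arg1- replicate 1. Cd300lf, a lipid-binding receptor, differed by 0.97 ± 0.27. The calls of Mertk and Cd300lf were lost with quantile normalization. Without Arg1- replicates 2 to 4 or Arg1+ replicates 2 to 4, one at a time, Mertk gave an adjusted p of 0.105 to 0.139. Without Arg1- replicates 1 to 3 or Arg1+ replicates 1 to 3 Cd300lf gave 0.0585 to 0.156.

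Genes for heme, iron and oxidant defence had 9 of 23 higher and 1 lower, with a median of 0.70. Mt2, a metal-binding metallothionein, read 2.61, 2.76, 3.09 and 1.80 against 0.46, 0.23, 0.17 and 0.17 (2.31 ± 0.32, adjusted p = 0.000514). Prdx6, a peroxidase of phospholipids, was 5.41 to 5.70 against 3.82 to 4.47 (1.49 ± 0.24, adjusted p = 0.00176). Prdx6 was free of overlap, and Mt2 was so by the rule that chose it. Slc48a1, a heme transporter, rested on 2 usable Arg1+ and 3 Arg1- spots (1.39 ± 0.28, adjusted p = 0.0175). Its call was lost without Arg1- replicate 2 or 4 or Arg1+ replicate 1 or 2 (adjusted p = 0.0546 to 0.0968). The 1 lower gene was Lcn2, which is on the neutrophil list too. The metallothionein probes can share RNA.

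Of 18 genes of lipid uptake, storage and export 2 were higher and 2 lower. Abca1, the pump that hands cholesterol to lipoproteins, was 3.90 to 4.31 on 3 usable Arg1+ spots against 2.65 to 3.20 (1.11 ± 0.20, adjusted p = 0.00574, blocked 0.0704). Fabp4, a carrier of fatty acids, differed by 1.17 ± 0.22. Sterol synthesis had 4 of 21 genes lower and none higher, with a median of -0.31. Cyp51, which removes a methyl group from lanosterol, read -1.82, -1.28, -1.73 and -1.80 against 0.10, -0.15, 0.41 and -0.19 (-1.70 ± 0.20, adjusted p = 0.000139). Srebf2, the activator of the pathway, differed by -1.04 ± 0.19. The early enzyme Hmgcs1 (-0.27) did not pass. Cyp27a1, which makes an oxysterol, was a lower member of the first list (-1.02 ± 0.21).

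Glycolysis and the hypoxia response had 11 of 26 genes higher and none lower, with a median of 0.72. P4ha2, a collagen prolyl hydroxylase, read -0.51, -0.44, -0.80 and -1.63 against -2.83, -3.32, -4.15 and -3.10 (2.51 ± 0.30, adjusted p = 0.000155, brain-only 0.0102). Egln3, a hydroxylase that marks HIF for decay and is itself induced by hypoxia, read 3.1, 3.1, 2.00 and 2.02 against 1.28, 1.04, 0.02 and 0.43 (1.86 ± 0.36, blocked adjusted p = 0.106). The groups were apart for Egln3, and for P4ha2 by the rule that chose it. For Egln3 replicates 1 and 2 were the higher ones in both groups. Hilpda, a lipid-droplet protein induced by hypoxia, was 3.85 to 4.84 against 2.54 to 3.25 (1.39 ± 0.28). Ndrg1 differed by 1.10 ± 0.25, a call lost without Arg1- replicate 3 or 4 or Arg1+ replicate 1 or 2 (adjusted p = 0.051 to 0.0709). The list median was 0.91 and 0.96 within slides 1 and 4 and 0.46 and 0.38 within slides 2 and 3.

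Matrix genes and their proteases had 5 of 33 higher and 1 lower, with a median of 0.29, or 0.17 with quantile normalization. Spp1, osteopontin, read 7.65, 7.42, 8.09 and 7.43 against 6.32, 6.25, 5.69 and 5.95 (1.60 ± 0.19, adjusted p = 0.000167), and averaged -4.13 in post-TBI monocytes. Mmp12, macrophage elastase, differed by 1.43 ± 0.22 and exceeded background on 3 Arg1+ arrays but on 1 of those of Arg1- cells. Mmp25 was the lower one.

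Enzymes and receptors of lipid mediators had 3 higher and 3 lower of 28. Ltc4s, which makes leukotriene C4, was -1.91 to -1.41 against -3.06 to -2.79 (1.30 ± 0.17, adjusted p = 0.000423), with tight groups far apart. Ptges, the terminal enzyme of prostaglandin E2, differed by 1.12 ± 0.28, and Fpr1, the receptor of formylated peptides, by 1.07 ± 0.27. The calls of both were unstable. Ptges lost its call on leaving out any of Arg1- replicates 2 to 4 and Arg1+ replicates 1 and 2 (adjusted p = 0.0724 to 0.0877), and Fpr1 on leaving out any of Arg1- replicates 2 to 4 and Arg1+ replicates 1, 2 and 4 (adjusted p = 0.0503 to 0.0991). Ptgs2, the inducible cyclooxygenase, gave 0.06 and did not pass.

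Purine signalling had 1 of 22 higher and 2 lower, 13.6% called. Nt5e, the CD73 gene, whose product makes adenosine outside the cell, was 1.59 to 2.65 against 0.83 to 1.24 (1.05 ± 0.21, adjusted p = 0.0079) and was at the floor in post-TBI monocytes. P2ry10 was at the floor in Arg1+ cells and at least 3.43-fold lower, a call lost without Arg1- replicate 3 or Arg1+ replicate 3 or 4 (adjusted p = 0.0544 to 0.0817). Its brain-only adjusted p was 0.0064. P2rx1, an ATP-gated channel, differed by -2.08 ± 0.53, a call lost on leaving out any of Arg1- replicates 1 to 3 and Arg1+ replicates 1, 3 and 4 (adjusted p = 0.0659 to 0.0915). P2rx1 gave a brain-only adjusted p of 0.0244.

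Of 56 transcription factors of myeloid cells 6 were lower and none higher, with a median of -0.23. Stat4, which relays IL-12, was -4.3 to -3.45 in Arg1+ and -1.63 to -0.64 in Arg1- cells (-2.55 ± 0.27, adjusted p = 8.28e-05). Vdr, the vitamin D receptor, was -2.69 to -1.85 against -0.75 to 0.11 (-1.90 ± 0.32, adjusted p = 0.00285). Nr4a3, an immediate early orphan receptor, differed by -1.69 ± 0.44 with overlap. Its call was lost on leaving out any of Arg1- replicates 1, 3 and 4 and Arg1+ replicates 2 to 4 (adjusted p = 0.0609 to 0.123). Factors often tied to arginase or to hypoxia did not pass, among them Hif1a (0.56), Cebpb (-0.32), Stat6 (0.22) and Pparg (-0.24).

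Adhesion genes had 6 of 30 lower and 3 higher. Spn, leukosialin, read -2.09, -1.13, -1.13 and -1.66 against 0.08, 0.62, 0.62 and 0.06 (-1.85 ± 0.21, adjusted p = 0.000139), and the groups were apart. Also lower were the LFA-1 chain Itgal (-1.54 ± 0.13) and Itgax, CD11c (-1.40 ± 0.25). The post-TBI monocytes were higher than both brain groups for Spn (4.43) and Itgal (6.19). For Itgax their mean of 0.84 lay within the range of the Arg1- arrays.

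Receptors of innate recognition had 6 of 26 lower and 1 higher. Clec10a, a galactose-type lectin, was 0.28 to 0.93 against 1.91 to 2.71 (-1.56 ± 0.23, adjusted p = 0.000821), and Trem3 was -1.25 to -0.91 against -0.29 to 0.05 (-0.97 ± 0.16). Trem1, an amplifier of inflammation, differed by -1.10 ± 0.28, a call lost without any 1 array except Arg1- replicate 2 (adjusted p = 0.0523 to 0.172). Guidance genes had 2 of 21 higher and 2 lower. Epha2, an ephrin receptor, differed by -1.45 ± 0.26, and Flrt2 by 1.79 ± 0.35 with overlap, and both calls were lost in the blocked fit (adjusted p = 0.0646 and 0.128). Nrp1, a receptor of semaphorins and VEGF, gave 0.75 ± 0.17, a call lost without Arg1- replicate 2 or 3 or Arg1+ replicate 3 (adjusted p = 0.0579 to 0.0728). Sema4d gave -0.65 ± 0.18, a call lost without any 1 brain array (adjusted p = 0.074 to 0.118). Its brain arrays were close together, 0.72 to 0.85 in Arg1+ and 1.38 to 1.49 in Arg1- cells, while post-TBI monocytes ran from 1.32 to 2.28. The adjusted p was 0.00446 brain-only, 0.0297 blocked and 0.00169 without post-TBI monocyte array 4.

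Proliferation genes had 6 of 31 lower and none higher, with a median of -0.37. Top2a, the topoisomerase of dividing cells, was -3.80 to -2.29 against -2.05 to -0.69 (-1.71 ± 0.35, adjusted p = 0.00897). Birc5, survivin, differed by -1.37 ± 0.25 and Tk1, a thymidine kinase, by -1.32 ± 0.29. Rrm2, a subunit of ribonucleotide reductase, was at least 2.16-fold lower, a call lost without any 1 array except Arg1- replicate 4 (adjusted p = 0.0528 to 0.108). Of 27 interferon-stimulated genes none was called by limma and 9 had an unadjusted p under 0.05. All 27 fitted differences were below 0, and the median was -0.39, with -0.95 within slide 2 and -0.28 to -0.15 within the other slides. In the response to amino acid shortage 2 of 23 genes were lower and none higher, 8.7% called against 5.86% of all genes with a symbol. They were Chac1 (-0.91 ± 0.20) and the glutamine carrier Slc1a5 (-0.80 ± 0.16, blocked adjusted p = 0.0671). The call of Chac1 was lost without Arg1- replicate 1 or Arg1+ replicate 2 or 4 (adjusted p = 0.0503 to 0.0525).

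Within slides the leading differences varied in size, while their sign was fixed by the choice of genes without overlap. Over the 15 genes with the largest excess, the median difference was 2.59, 2.00, 1.89 and 2.63 on slides 1 to 4. Over the 15 with the largest deficit it was -3.85, -3.87, -4.44 and -3.51. Of 14 leading higher genes measured on every slide, 9 had larger differences on both slides 1 and 4 than on slides 2 and 3. Slides 1 and 4 hold Arg1- replicates 4 and 3, which had the least Arg1 RNA of their group, and Arg1+ replicates 1 and 2. Ccl24, for example, differed by 3.44 and 3.96 on slides 1 and 4 and by 1.99 and 2.16 on slides 2 and 3. Among the Arg1- arrays, replicate 1 had the highest value for 12 of the 15 higher genes and replicate 3 the lowest for 11. Apart from Arg1, replicates 1 and 2 were the upper pair for 10 of 14 genes. What sets these arrays apart was not tested.

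**Figure D5:**
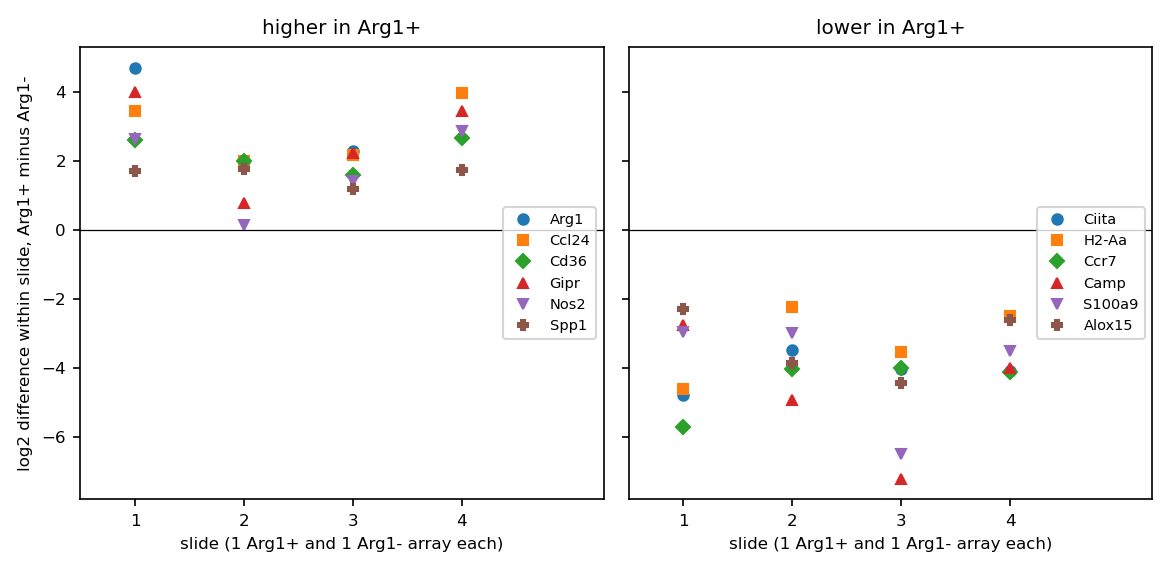
Difference between the Arg1+ and the Arg1- array of each slide (vertical axis, log2) for 6 higher genes (left) and 6 lower genes (right), by slide (horizontal axis). Each marker is 1 pair of arrays, and Arg1 has none on slide 4 because its spot was set aside. Nos2 falls to 0.15 on slide 2, and Camp reaches -7.22 on slide 3.

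Set beside post-TBI monocytes, genes called in either direction more often had the monocyte level on the Arg1- side. Of the 398 higher genes with a symbol, the monocyte mean was nearer to the Arg1- mean for 351, 88.2%, and for 307 it lay beyond it, so that Arg1- cells were between monocytes and Arg1+ cells. Of the 362 lower genes the monocyte mean was nearer to Arg1- for 261, 72.1%, and beyond it for 209. Among genes that were not called the share nearer to Arg1- was 59.6%. Spp1 and Ccl24 are examples of the first kind, and Spn and Ear1 of the second. For 52 lower genes the monocyte mean lay below that of Arg1+ cells, as for Ccl17, whose monocyte mean was -2.51. The monocyte arrays shared the fit of the spread with the brain arrays, and these shares are descriptions with no test.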

How the data were processed

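RNA levels were measured on 14 one-colour Agilent arrays of sorted cells, 8 of them compared here. Per the file headers, the authors' scanner files hold Feature Extraction 10.7.3.1 intensities: a processed signal, background-subtracted and detrended, spot and background medians, and other values, 0 or 1 flags. The deposited log2 table holds the authors' own values, which an alternative used; the submitters' processing notes name limma without version or step. Positions in the array annotation (mm9) are not used.

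The processed signal was divided by the 75th percentile of that array, control probes left out, raised to 0.05 where lower, and log2 transformed. Non-uniform and outlying spots were set to missing. Of 41174 probes, 27605 had 2 or more usable arrays per group and were well above background on 3 or more of 14 arrays. RefSeq accessions gave symbols through a GRCm38.p6 table, and the brightest probe stood for a symbol with several, which left 21967 features. All 14 arrays entered 1 limma fit (limma 3.58.1, R 4.3.3; lmFit, eBayes with trend, 10 residual degrees of freedom, two-sided), with Benjamini-Hochberg adjustment over all features. Where no array of a group was well above background, the change is a bound ("at least N-fold"): the bright group's mean against the dim group's mean, each dim value raised to the lowest level well above background on its array. The number of arrays, 4 per group, limits the precision.

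Named genes are the 15 largest called differences per direction without overlap, up to 4 called members of each of 24 lists of biology and 16 lists of markers, and 21 fixed genes. The gene lists, the rule and the members were chosen with earlier results of these data known. Uncalled list members given with a value, and those marked so, were picked after their values were seen. Slide as a block, other normalizations, filters and left-out arrays were alternatives. The scripts were tested on simulated data. The labels do not say whether replicate numbers pair the samples. Deviations from the group means correlated at -0.46 to 0.40 for equal numbers and at 0.041 to 0.591 for equal slides. For pairs with neither in common they correlated at -0.53 to 0.32. With 4 pairs of each of the first kinds, these ranges cannot decide whether numbers pair the samples. A few list members counted in the totals are not reported here by name.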

Additional observations from a re-analysis of the deposited data

Results flagged for a closer look

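For the named genes, the gap between the most extreme array and its nearest neighbour was set against Dixon's critical value in 227 groups of 4 arrays, of which 12 passed. Chance alone flags about 1 in 20 groups, so this number is no pattern in itself.

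Among Arg1+ arrays, replicate 2 stood above the others for Cd209a (-2.64), Btla (-3.55), Dpp4 (-4.02) and Cyp51 (-1.28), in each case a gene that was lower in Arg1+ cells, and the other arrays of Cd209a, Btla and Dpp4 were at the floor. Replicate 4 stood above the others for Flt3 (-3.78), again with the rest at the floor, and below them for Cd163 (-3.0). Replicate 1 was highest for Il1b (2.01), inside the range of the Arg1- arrays. Replicate 3 of Ccl22 was set apart at -4.32, but all 4 arrays lay at or beside the floor and below background, so its distance carries no information. Among Arg1- arrays, replicate 1 stood above the others for Gipr (-3.19) and was the only one well above background on the probe used. Replicate 3 was highest for Ciita (2.52), which widens the gap between the groups. Replicate 4 was lowest for Gja1 (-4.32, the floor), and replicate 2 lowest for Adgre1 (3.16), where the other 3 arrays lay within 0.01 of each other.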

How the results depend on the processing

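None of the 111 called genes among those named changed sign in any of the 21 alternatives. Of those not called, Itgam (0.15) fell to -0.08 and -0.06 with quantile normalization without and with normexp, Tgfb1 (0.01) ranged from -0.12 to 0.12, and Tnf (0.27) reached -0.01 without Arg1- replicate 2. Of the 111 named genes that were called, 46 were called in every alternative that tested them, 65 lost the call in at least 1 and 23 in more than 5. Of the 8 not called, 5 were called in none, and Adgre1, Ccr2 and Mrc1 were called with slide as a block. When single brain arrays were left out, 83 of the 111 were called each time.

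The counts moved most. Against 470 higher and 638 lower, the fit of the 8 brain arrays alone called 722 higher, and leaving out post-TBI monocyte array 4, which enters only through the spread, called 841 higher. With a replicate block on the 8 brain arrays 119 were higher and 191 lower, of which 274 were among the 1108 calls. Whether replicate numbers pair the samples is not known. Leaving out 1 brain array at a time gave 235 to 409 higher and 367 to 579 lower. Quantile normalization called 332 higher and 602 lower, and the share of calls that were higher fell from 42.4% to 35.5%. The authors' log2 values called 392 and 518.

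Depth limits dim genes: a difference from a group below background is a bound, and levels at the floor have no order. The fit assumes equal spread in brain and blood groups. Arrays at the floor, or blood arrays that scatter widely, break that assumption.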

Other observations

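Features with no gene symbol in the table used, mostly cDNA clones and predicted transcripts, split unlike the named genes. Of 9004 tested 72 were higher and 276 lower in Arg1+ cells, with a median difference of -0.09, against 398 higher and 362 lower of the genes with a symbol. Among 4639 features known by cDNA clones whose accession starts with AK, 33 were higher and 154 lower. More of these features were lower than higher in each alternative tried, for example 54 against 173 with normexp background correction, 55 against 304 with a floor of 0.01, 125 against 446 without post-TBI monocyte array 4 and 15 against 68 with a replicate block. Their median within slides was 0, -0.11, -0.11 and -0.07. Which transcripts these are was not analysed here.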
